A study of Mus musculus with 6 samples.

Results

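The transcripts described here are the 79 long intergenic non-coding RNAs (lincRNAs) that were expressed in freshly isolated muscle stem cells (MuSCs) of Sirt6mKO and control mice. They were the rows with the biotype lincRNA and a mean normalized signal of at least 20 over the 6 libraries, out of 1265 lincRNAs and 25166 genes in the table. Of the 87 lincRNAs at that level, 8 were left out: the imprinted Meg3, H19 and Mirg, and 5 genes on the sex chromosomes. The rule also set aside any lincRNA near Sirt6 on chromosome 10. The members were thus chosen by their mean signal over both groups, and the levels are given as a description without a test. The 2 members just inside the minimum were Gm42743 with a mean of 20.8 and Gm50269 with 20.2, and the 2 lincRNAs just outside it were 4833445I07Rik with 19.3 and E130102H24Rik with 19.

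lincRNAs are transcribed and processed much like messenger RNAs but are not translated into a known protein, and many stay in the nucleus. Malat1 accumulates in nuclear speckles, where splicing factors are stored, and Neat1 is the scaffold of paraspeckles, bodies built from RNA-binding proteins around this RNA. Other lincRNAs act next to the gene they are transcribed from, bind proteins or miRNAs in the cytoplasm, or serve mainly as precursors of small RNAs. MuSCs are the PAX7-positive cells beneath the basal lamina of myofibers that rest until the muscle is injured.

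Both groups were C57BL/6 mice, and MuSCs were sorted by FACS. In Sirt6mKO mice, Cre recombinase driven by the Pax7 promoter removes floxed exons of Sirt6, a histone deacetylase, in the muscle lineage from development onwards. The controls are labelled wild type, whereas a legend of the study describes controls as floxed Sirt6 mice that lack Cre. Each group had 3 libraries from 100 to 200 sorted cells, and nothing in the labels says that each came from a different mouse, so the p-values measure the spread between these samples.

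Sirt6 itself had signals of 19, 20 and 13 in the Sirt6mKO libraries and 18, 17 and 20 in the control libraries. A value for the whole gene does not check a deletion of some exons, so group names follow the labels alone. About 1267947 to 3211528 reads per library lay behind the signals, the fewest in control replicate 3 and the most in control replicate 2, and 1 read was worth a signal of 0.7289 to 1.792. All 10 MuSC markers were tested, among them Pax7. None of them passed both thresholds of limma, beside 2.59% of all genes tested. 2 passed the adjusted p alone, beside 4.52%, and 4 had an unadjusted p under 0.05, beside 18.1%. The summed signal of the 10 was 13564 to 14079 in Sirt6mKO and 14964 to 16043 in control. Pax7, which marks these cells and whose promoter drives Cre here, was one of the 2, with signals of 1841, 2307 and 1810 in Sirt6mKO and 4066, 3449 and 3150 in control (log2 fold change -0.84, adjusted p 0.0041). The other, Cd34, was higher in Sirt6mKO, with 690, 855 and 882 against 439, 605 and 563 in control (log2 fold change 0.60, adjusted p 0.031). The median log2 fold change of the 10 markers was -0.10. The summed signal of 9 myofiber markers was 693 to 2044 in Sirt6mKO and 577 to 672 in control. 2 of the 9 passed both thresholds as higher in Sirt6mKO, beside 1.57% of all genes. The summed signal of 8 fibroblast markers was 8515 to 10500 in Sirt6mKO and 5997 to 9363 in control, with 3 genes higher. Col3a1, the most abundant fibroblast marker with a mean signal of 7335, had a log2 fold change of 0.06. The 3 higher genes, Col1a2, Pdgfra and Col1a1, had 3.55, 2.16 and 1.94, and the median of the 7 tested was 1.39. Of the 6 endothelial and the 6 immune markers, 1 each reached the level for testing. The 8 immediate early genes, which dissociation of muscle also induces, had summed signals of 14694 to 16999 in Sirt6mKO and 8659 to 10908 in control. Of these 8, 0 passed both thresholds, 5 passed the adjusted p alone and 8 had an unadjusted p under 0.05. The part of these differences in the lincRNA values was not tested, and fewer cells of a type cannot be told apart from less RNA per cell.

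Malat1 (ENSMUSG00000092341; chromosome 19, 5795690 to 5802672, minus strand, GRCm38) had the highest signal of the table in every library. The Sirt6mKO libraries had signals of 27731, 29233 and 24931 and the control libraries 31426, 22854 and 28866. The groups overlapped, and the log2 fold change of Sirt6mKO over control was -0.01 ± 0.17 (SE) at an adjusted p of 0.98. Malat1 alone held 72.8 to 77.8% of the signal of the 79 lincRNAs and 0.976 to 1.34% of the signal of all genes. Per kilobase of exon it ranked 2 of 25098 genes.

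Neat1 lies next to Malat1 on chromosome 19 (5824708 to 5845478, minus strand) and was the next in level. It had signals of 2125, 2873 and 2869 in Sirt6mKO and 3139, 2706 and 3440 in control. The groups overlapped, and the log2 fold change was -0.25 ± 0.14 with an adjusted p of 0.41. Per kilobase, Neat1 reached a signal of 138 and Malat1 one of 3939, so that Neat1 stood at rank 478 of all genes. The length used for Neat1 was 20771 bases, that of the longest of its 4 annotated transcripts, and the transcripts were not told apart. The ratio of Malat1 to Neat1 signal ranged from 8.69 to 13 in the Sirt6mKO and from 8.39 to 10 in the control libraries.

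The proteins of speckles and paraspeckles were read beside these RNAs. None of 18 paraspeckle proteins and none of 18 nuclear speckle proteins passed the thresholds of limma, beside 2.59% of all genes. Of the 2 lists, 2 and 1 proteins had an unadjusted p under 0.05, beside 18.1% of all genes. The median log2 fold changes were -0.14 and -0.01, against 0.002 over all genes tested. Sfpq, which binds Neat1 and is needed for paraspeckles, had mean signals of 1074 ± 80.5 (SD, n = 3) in Sirt6mKO and 1073 ± 57.9 (SD, n = 3) in control. Son, the core protein of nuclear speckles, had 4716 ± 326 and 5053 ± 12.9. Among 14 tested genes of Malat1 3′ end processing and RNA decay, 0 passed and 1 had an unadjusted p under 0.05. Elac2, the RNase Z that trims the tRNA-like RNA released from the end of Malat1, had means of 138 ± 19.8 and 132 ± 28.6.

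**Figure D1:**
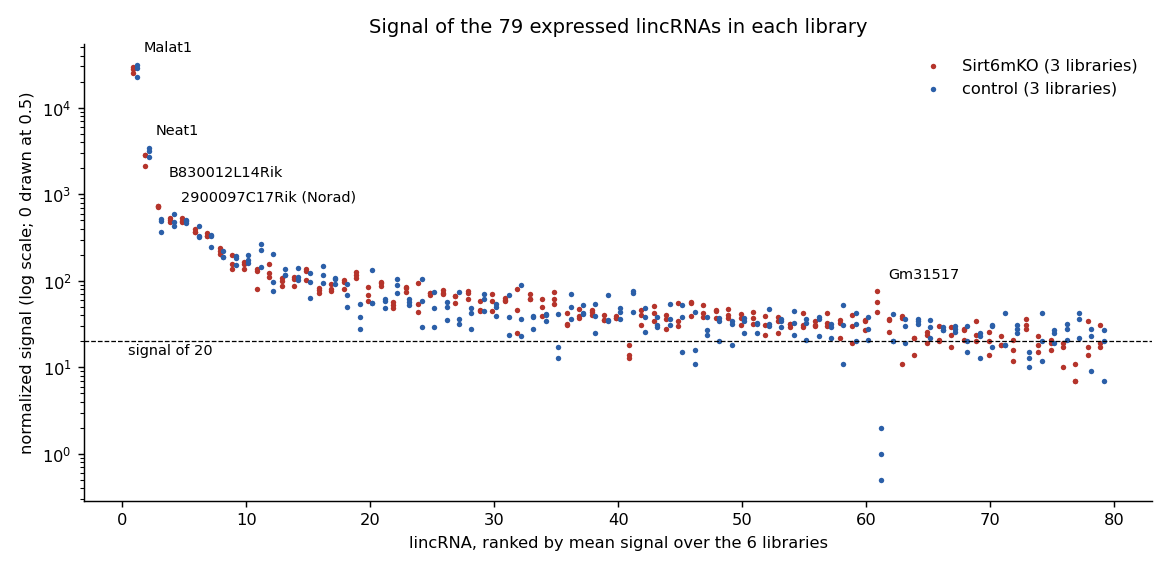
Normalized signal (vertical axis, log scale, 0 drawn at 0.5) of each of the 79 lincRNAs, ranked by mean signal on the horizontal axis, with a point for each of the 3 Sirt6mKO (red) and 3 control (blue) libraries. Malat1 and Neat1 stand above all others, 47 members have a mean under 50, and Gm31517 is the only member with control libraries at 0, 1 and 2.

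Beneath these 2 RNAs the level fell quickly. The remaining 77 lincRNAs held 0.224 to 0.284% of the signal of a library together. B830012L14Rik followed with a mean of 590, and 15 members had a mean of 100 or more, whereas 47 were under 50. The median member had a signal of 40.3, a summed exon length of 3440 bases and a signal of 15.1 per kilobase, and 13 members had a single merged exon. Among the 10 highest, Gm37494 had a log2 fold change of 0.08, Lncpint, a transcript induced by p53, 0.16, Dubr, which lies in the neighbourhood of no coding gene within 100 kb and is needed for myoblast differentiation, 0.14, and Gm26834 -0.12. All had adjusted p-values of 0.6 or more.

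2900097C17Rik is Norad, a cytoplasmic RNA that sequesters Pumilio proteins (chromosome 2, 156388065 to 156392979, minus strand). It had 507, 533 and 479 in the Sirt6mKO libraries against 477, 587 and 425 in the control libraries, a log2 fold change of 0.04 ± 0.13. The Pumilio element (TGTA, any base, ATA) was searched on the sense strand of the longest annotated transcript of each member. Norad held 11 of these elements in 4915 bases, whereas the other 78 members held at most 5, and 48 of them none. This is 2.24 elements per kilobase in Norad against 0.159 in the other members and 0.116 over the longest transcript of every annotated gene. The first 3 elements, in capitals, with 8 bases on either side, show the repeat that sets this RNA apart from the rest of the group:
Norad bases 651 to 658: aagtcctgTGTATATAatatgaaa
Norad bases 1147 to 1154: aaacatgcTGTAAATAcctttttg
Norad bases 1336 to 1343: cttttcttTGTACATAgtgtatgt
A stretch of 2537 bases of Norad is nearly the same in Gm7292, and the methods state that reads with several places in the genome were left out, so that its signal may be too low.

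Oip5os1 is the RNA known as Cyrano (chromosome 2, 119594297 to 119607502, plus strand), which holds a conserved site for miR-7. It had signals of 533, 478 and 495 in Sirt6mKO and 496, 462 and 507 in control, with overlapping groups and a log2 fold change of 0.04 ± 0.11. The transcript of 8300 bases held 2 matches to the seed of miR-7a-5p. The second of them, at bases 2937 to 2959, pairs with 13 of the 23 bases of the miRNA without gaps. The capitals mark the seed (bases 2 to 8) and its complement, and both are written 5′ to 3′ (miRNA sequences here are from RefSeq for GRCm38):
miR-7a-5p: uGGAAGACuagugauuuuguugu
Cyrano site: aacaaaatcaccaatGTCTTCCa

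6 of the 79 lincRNAs hold annotated miRNA genes on their own strand and 4 hold snoRNA genes there. 6720427I07Rik carries the hairpins of let-7a-1, let-7f-1 and let-7d in its exons (chromosome 13, 48532905 to 48546500, minus strand). The let-7 miRNAs repress genes of growth and of early development. The host had signals of 166, 136 and 155 in Sirt6mKO and 173, 159 and 201 in control, a log2 fold change of -0.22 ± 0.14 with an adjusted p of 0.46 and overlapping groups. The mature forms share the same seed, shown in capitals, and differ outside it:
let-7a-5p: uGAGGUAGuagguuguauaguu
let-7d-5p: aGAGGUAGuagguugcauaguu
let-7f-5p: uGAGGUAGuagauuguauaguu
The Snhg genes are named as hosts of snoRNAs, which guide the modification of other RNAs, and had 3 members, none of which passed. Snhg12 and Snhg15 hold genes annotated as snoRNAs on their strand, whereas Snhg20 holds none. Snhg12, Snhg20 and Snhg15 had log2 fold changes of -0.23, -0.30 and -0.28.

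The comparison of Sirt6mKO with control asks which lincRNAs differ in the MuSCs labelled Sirt6mKO. A gene was called when its limma p, adjusted by Benjamini-Hochberg over the 14227 genes tested, did not exceed 0.05 and it differed by at least a doubling or halving (a log2 fold change of 1 on the scale of signal + 1). 6 of the 79 lincRNAs were called, which is 7.59%, beside 2.59% of all genes tested and 2.56% of those with a mean of at least 20. Gm31517, 4930518P08Rik, 4932435O22Rik and Gm31126 were higher in Sirt6mKO (5.06%, against 1.57% of all genes), and Gm42047 and Gm28653 were lower (2.53%, against 1.02%). 4 of these 6, Gm31517, Gm31126, Gm42047 and Gm28653, are among the 11 members with a group mean under 20. These 11 reached the minimum level through their high group. Some difference between the groups, though not its size, was thus built into these 11 by the rule. Among the 68 members with both group means at 20 or more, 2 were called (2.94%), 4930518P08Rik and 4932435O22Rik, 6 passed the adjusted p alone (8.82%, beside 4.52% of all genes), and the groups did not overlap for 14 (20.6%, beside 21.2%). The number called higher was 2 without Sirt6mKO replicate 1, Sirt6mKO replicate 2 or control replicate 2.

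**Figure D2:**
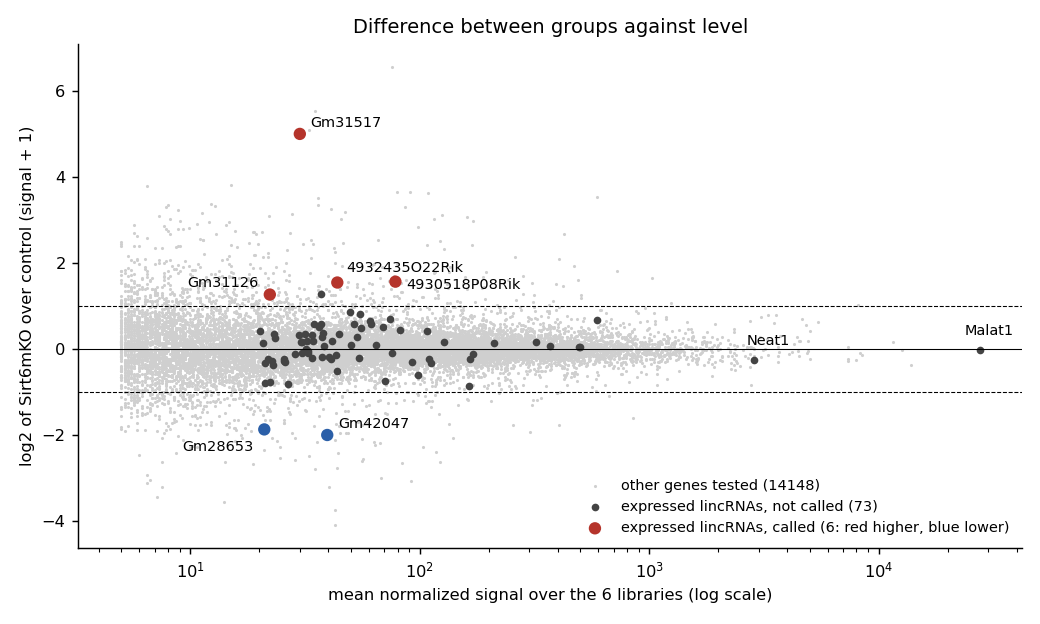
Log2 fold change of Sirt6mKO over control on the scale of signal + 1 (vertical axis) against mean normalized signal over the 6 libraries (horizontal axis, log scale) for every gene tested, with the lincRNAs as large points. Of the 79 members, 54 lie within 0.5 of 0, Malat1 and Neat1 lie near 0 at the right, and the 6 called lincRNAs, 4 higher (red) and 2 lower (blue), have means under 100.

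Most members differed little between the groups. The log2 fold changes ran from -2.0 to 5.01 with a median of 0.10, and 54 members lay within 0.5 of 0. With the adjusted p alone and no minimum fold, 10 members passed, 7 higher and 3 lower (12.7%, against 4.52% of all genes). Among the 68 members with both group means at 20 or more this share was 8.82%. The groups did not overlap for 21 members, 11 higher and 10 lower (26.6%, against 21.2% of all genes, 11.1% higher and 10.1% lower). An unadjusted p under 0.05 was found for 22 members, and for 18.1% of all genes. An exact permutation test of a single gene cannot go below 0.1 with 3 libraries against 3, and all 21 stood at that value. By type of symbol, 2 of 21 RIKEN clones and 4 of 41 predicted Gm genes were called, beside 2.59% of all genes, and all 4 Gm genes are those with a group mean under 20. None of the 11 lincRNAs with names of their own, the 3 Snhg genes or the 3 other clones was called by limma. Of the 11, 3 had an unadjusted p under 0.05, and of the other 6, 0 had one.

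Gm31517 had the largest difference of the group. It lies on chromosome 14 (15015189 to 15065231, minus strand) with 12 merged exons. Its signal was 76, 57 and 44 in the Sirt6mKO libraries and 0, 1 and 2 in the control libraries. All control libraries were at or under 3 reads, and against that floor, averaged over the group, Gm31517 was at least 15.7-fold higher in Sirt6mKO. The fitted log2 fold change was 5.01 ± 0.45 with an adjusted p of 9.9e-05. The nearest coding gene is Nek10, a kinase of the NIMA family, 3130 bases away on the opposite strand. Nek10 had signals of 14, 22 and 26 in Sirt6mKO and 6, 9 and 7 in control. These groups did not overlap either, and the log2 fold change of Nek10 was 1.35 ± 0.36 with an adjusted p of 0.052.

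4930518P08Rik was the most abundant of the called lincRNAs (chromosome 13, 50753391 to 50765248, minus strand, 4 exons). It had signals of 109, 116 and 125 in Sirt6mKO and 54, 28 and 38 in control. The lowest Sirt6mKO library was above the highest control library by a wide margin. The log2 fold change was 1.57 ± 0.22 with an adjusted p of 0.0018. Gm31126 lies 497 kb away by its start on the same chromosome (50267976 to 50276670, plus strand). It had 31, 28 and 36 in the Sirt6mKO libraries against 15, 10 and 13 in control, a log2 fold change of 1.27 ± 0.28 with an adjusted p of 0.023. This call held in 2 of the 6 fits that left out 1 library and was lost without any of the Sirt6mKO libraries or without control replicate 2, where the highest adjusted p was 0.11. 4933433N18Rik, 628 kb from 4930518P08Rik (50137069 to 50146670, plus strand), had 72, 62 and 76 in Sirt6mKO and 49, 28 and 43 in control. Its groups did not overlap, but its log2 fold change of 0.82 ± 0.22 did not pass, with an adjusted p of 0.06.

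These 3 lincRNAs are the only members on a stretch of 628 kb in which 5 genes were tested. All 5 had a log2 fold change above 0, and 2 were called. The pseudogene Gm47413 had 1.34 with overlapping groups, and the coding gene Fbxw17 had 0.18. The pseudogene Gm2654, 20.9 kb beyond 4930518P08Rik, had signals of 29, 20 and 19 in Sirt6mKO and 12, 8 and 5 in control, with an adjusted p of 0.054. The stretch was singled out after its values were seen.

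**Figure D3:**
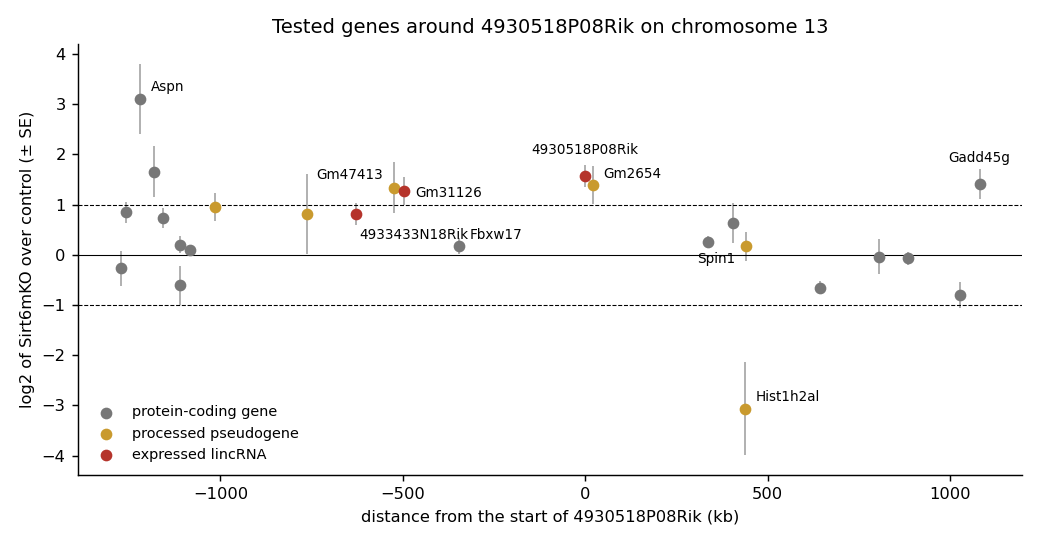
Log2 fold change of Sirt6mKO over control (vertical axis, bars are SE) of the genes tested around 4930518P08Rik, by distance from its start in kb (horizontal axis). The lincRNAs (red) lie at 0.82, 1.27 and 1.57 beside the pseudogenes Gm47413 and Gm2654 (ochre) at 1.34 and 1.39, whereas the coding gene Fbxw17 (grey) between them lies at 0.18.

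RefSeq promoters (GRCm38, 250 bases before and 50 after the start) were matched by symbol for 42 of the 79 lincRNAs. Those of the 3 lincRNAs of this stretch are shown, since all had log2 fold changes above 0 and a pair of them share a copied sequence. The promoters of 4933433N18Rik and Gm31126 were identical at 279 of 283 aligned bases, and the transcripts share a stretch of 130 bases. Reads from the shared stretch are uncertain, and whether the copied sequence affects the values of these 2 genes was not tested. CCAAT, on either strand, is in capitals. It occurred in all 3 promoters shown, in 17 of the 42 member promoters and in 37.4% of the 32817 promoters of the table. TATAAA and CAGCTG, also searched on both strands, were in none of these 3, and in 13.6 and 16.3% of all promoters.
4930518P08Rik (chr13:50765199-50765498, minus strand): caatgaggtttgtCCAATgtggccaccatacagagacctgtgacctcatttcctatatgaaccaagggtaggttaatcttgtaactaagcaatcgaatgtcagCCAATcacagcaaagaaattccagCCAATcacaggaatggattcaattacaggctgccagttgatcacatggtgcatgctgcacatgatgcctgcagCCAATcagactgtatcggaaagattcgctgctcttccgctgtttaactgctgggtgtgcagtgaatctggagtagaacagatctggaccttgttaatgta
4933433N18Rik (chr13:50136743-50137042, plus strand): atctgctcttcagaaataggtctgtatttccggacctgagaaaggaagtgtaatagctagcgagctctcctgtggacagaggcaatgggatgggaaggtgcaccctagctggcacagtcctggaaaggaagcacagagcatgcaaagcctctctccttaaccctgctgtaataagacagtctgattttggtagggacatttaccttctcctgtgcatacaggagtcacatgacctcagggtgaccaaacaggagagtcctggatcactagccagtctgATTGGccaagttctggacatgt
Gm31126 (chr13:50267613-50267912, plus strand): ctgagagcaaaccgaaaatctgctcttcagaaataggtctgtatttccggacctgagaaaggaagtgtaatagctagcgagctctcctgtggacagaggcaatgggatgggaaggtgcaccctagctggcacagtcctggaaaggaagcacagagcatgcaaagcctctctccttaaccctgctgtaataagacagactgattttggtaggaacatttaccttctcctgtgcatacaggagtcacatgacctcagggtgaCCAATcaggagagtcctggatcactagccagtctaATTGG
With 4 CCAAT motifs, the promoter of 4930518P08Rik held more of them than the others shown.

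4932435O22Rik lies far from coding genes on chromosome 11 (114413401 to 114448860, minus strand), 219664 bases from Rpl38. It had signals of 62, 75 and 54 in Sirt6mKO and 41, 17 and 13 in control. The groups did not overlap, but control replicate 1 lay well above the other two. The log2 fold change was 1.55 ± 0.35 with an adjusted p of 0.025. The call held in 2 of the 6 fits without 1 library. It was lost without Sirt6mKO replicate 1 or 2 or control replicate 2 or 3, with adjusted p-values up to 0.14.

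Gm28653 was lower in Sirt6mKO and is the locus of linc-MD1, a transcript of differentiating myoblasts. It lies on chromosome 1 (20669882 to 20684298, plus strand) and contains the genes of miR-206 and miR-133b, miRNAs of skeletal muscle that promote differentiation. The Sirt6mKO libraries had 7, 7 and 11 and the control libraries 36, 22 and 43, a log2 fold change of -1.87 ± 0.34 with an adjusted p of 0.0081. The groups were well separated, and the call held in all 6 fits that left out 1 library, with an adjusted p of at most 0.049. The Sirt6mKO mean of Gm28653 was 8.33, so that it became a member through the control group and some difference was built in. The mature miRNAs of the locus have different seeds (capitals):
miR-206-3p: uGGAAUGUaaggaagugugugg (chr1:20679055-20679076, plus strand)
miR-133b-3p: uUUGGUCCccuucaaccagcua (chr1:20682834-20682855, plus strand)
These libraries measure the host RNA and not the mature miRNAs. The summed signal of the myofiber markers was 1824, 2044 and 693 in Sirt6mKO and 577, 672 and 647 in control, and its part in the value of Gm28653 was not tested.

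Gm42047 had signals of 18, 14 and 13 in Sirt6mKO and 76, 44 and 72 in control (chromosome 8, 121833247 to 121841178, plus strand). The control libraries all lay well above the Sirt6mKO libraries. With a Sirt6mKO mean of 15, Gm42047 became a member through the control group, so that some difference was built in here too. Its log2 fold change was -2.0 ± 0.27 with an adjusted p of 0.0013, and it was called in every fit without 1 library. It lies inside the annotated readthrough gene Gm20388, and the flanking coding genes Klhdc4 and Slc7a5, a transporter of large amino acids, had log2 fold changes of -0.07 and 0.09. Of its transcript of 4988 bases, 95.9% recurs at 98% identity or more in 5 other annotated genes, so that many of its reads have several places in the genome. Such reads were left out according to the methods, and the signal then rests on the bases that differ between the copies.

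**Figure D4:**
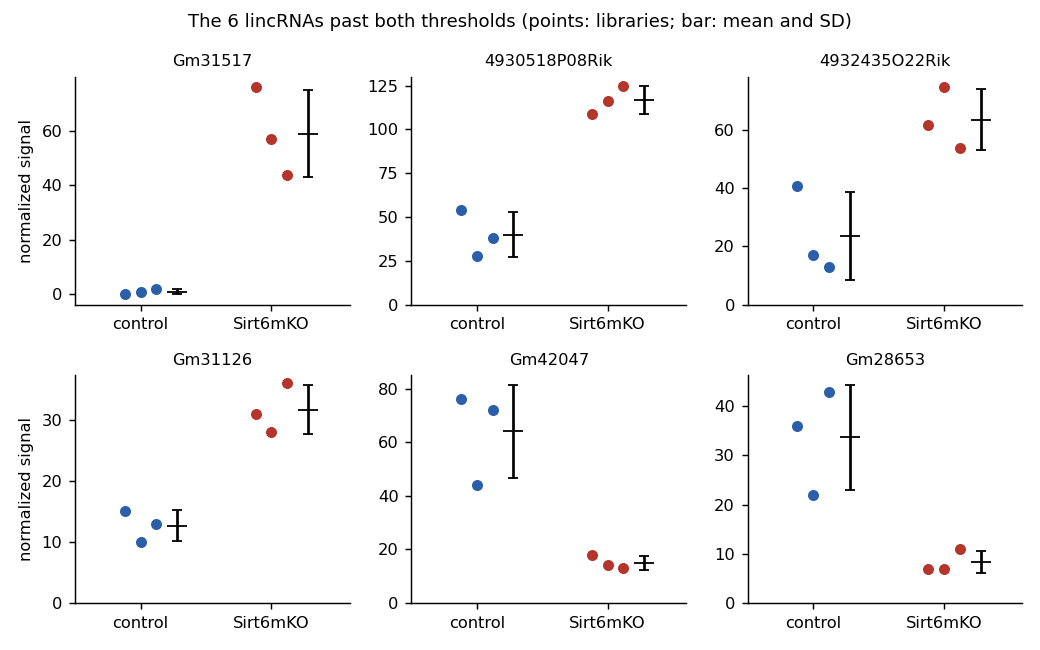
Normalized signal (vertical axis, from 0) of the 6 called lincRNAs in the control (blue) and Sirt6mKO (red) libraries, 1 point for each library, with the mean and SD of 3 libraries as a bar beside the points. The groups are separate in every panel, and control replicate 1 of 4932435O22Rik, at 41, is the control value closest to the Sirt6mKO libraries of its panel.

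A further 4 lincRNAs passed the adjusted p with less than a doubling. B830012L14Rik lies in the imprinted Dlk1-Dio3 region of chromosome 12 (109676277 to 109714555, plus strand) and spans 9 miRNA genes on its strand. It had signals of 708, 726 and 734 in Sirt6mKO and 517, 368 and 488 in control, a log2 fold change of 0.67 ± 0.13 with an adjusted p of 0.012. Every Sirt6mKO library was above every control library. Rian, a snoRNA host of the same region, had 0.63 with an adjusted p of 0.01, and Meg3, another maternally expressed RNA there, had 0.39 with 0.36. Gm37899, on the same strand at 109668869 to 109677585, had 0.88 with an adjusted p of 0.0073, and Mirg had 0.52 with 0.088. The groups of Gm37899 and of Mirg did not overlap. The hairpin of Mir411, which lies in the intron of B830012L14Rik, had signals of 23, 14 and 9 in Sirt6mKO and 5, 11 and 4 in control, with overlapping groups. Of the miRNAs inside B830012L14Rik, miR-379-5p and miR-411-5p are shown, whose hairpins have values of their own in the table. Their seeds (capitals) are not the same:
miR-379-5p: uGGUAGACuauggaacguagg
miR-411-5p: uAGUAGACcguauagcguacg
Mir379 was at 0 to 3 in the libraries, too few for a comparison.

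Gm46430 on chromosome 13 had signals of 61, 62 and 70 in Sirt6mKO and 38, 28 and 39 in control, a log2 fold change of 0.87 ± 0.20 with an adjusted p of 0.029. 3222401L13Rik on chromosome 18 had 96, 95 and 87 against 59, 49 and 61, a log2 fold change of 0.71 ± 0.16 with an adjusted p of 0.028. 4732419C18Rik on chromosome 8 was lower, with 48, 57 and 52 against 90, 104 and 73, a log2 fold change of -0.74 ± 0.18 and an adjusted p of 0.037. The groups of all 3 were separate. They passed in 2, 2 and 1 of the 6 fits without 1 library, and B830012L14Rik in 4. 3222401L13Rik overlaps the coding gene Gm42416 on its own strand. The nearest tested coding gene, Pcdhga1, lies 51 bases away on that strand. Pcdhga1 had 114, 119 and 129 in Sirt6mKO and 79, 65 and 93 in control, a log2 fold change of 0.62 with an adjusted p of 0.053. The part of these genes in the value of 3222401L13Rik was not tested.

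Several lincRNAs with known roles did not pass. Morrbid, which represses the proapoptotic gene Bcl2l11 in myeloid cells, had signals of 56, 57 and 39 in Sirt6mKO and 44, 11 and 16 in control. Control replicate 1 reached into the range of the Sirt6mKO libraries, and the log2 fold change of 1.28 ± 0.40 had an adjusted p of 0.098. Morrbid was called in 1 of the 6 fits without 1 library, with log2 fold changes from 0.88 to 1.83 over these fits. The adjusted p ranged from 0.0046 without control replicate 1 to 0.31 without Sirt6mKO replicate 1. Bcl2l11, 15772 bases away, had a log2 fold change of 0.26. Carmn, a lincRNA of smooth muscle and heart, had 22, 22 and 14 against 34, 36 and 32, a log2 fold change of -0.81 with separate groups and an adjusted p of 0.11. Pvt1, the neighbour of Myc, had 88, 100 and 109 against 118, 139 and 117, a log2 fold change of -0.33, and Myc had -0.26. Hotair, which is transcribed from the HoxC cluster, had 27, 35 and 34 against 21, 28 and 38, a log2 fold change of 0.17.

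Gm44067 had 80, 131 and 139 in Sirt6mKO and 264, 143 and 228 in control, a log2 fold change of -0.85 ± 0.24 with an adjusted p of 0.068. Its exons are covered in full by an annotated gene on the opposite strand, and whether the strand of reads was used in counting is not given in the sources used here. In all, 25 members have exons that overlap another gene. Gm10076 is a copy of Rpl41, with 99.7% of its bases shared, and with reads of several places left out its mean signal of 33.8 is uncertain.

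The nearest coding genes give the surroundings of the group. The median distance to one was 4608 bases, 44 members lay within 10 kb of one, 12 overlapped one, and 8 were more than 100 kb away. The nearest tested coding genes of the 79 members were 76 different genes. None of them was called by limma, beside 2.59% of all genes. For 13 of the members that gene had an unadjusted p under 0.05, beside 18.1% of all genes. The adjusted p alone was passed by 1 of these nearest genes, beside 4.52% of all genes. This was Ap3b2, 29625 bases from 2900076A07Rik, with a log2 fold change of -0.73 and an adjusted p of 0.019. 4 members start head to head with a coding gene within 1000 bases: 5031425E22Rik with Kmt2e, AI480526 with Setd1b, 4632404H12Rik with Ube2q1 and Gm15728 with Rfc5. Kmt2e had 1556, 1649 and 1621 in Sirt6mKO and 1248, 1006 and 1499 in control, whereas 5031425E22Rik had 58, 68 and 85 against 55, 55 and 133. The groups were separate for Kmt2e (log2 fold change 0.38, adjusted p 0.15) and overlapped for the lincRNA (-0.09, adjusted p 0.92).

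The lincRNAs also varied between libraries of a group. The median coefficient of variation was 15.7% in Sirt6mKO and 25.6% in control, against 11.4 and 14.2% for the 10192 genes with a mean of at least 20. The levels of these sets were not matched, with a median signal of 40.3 for the lincRNAs and 97.6 for those genes. Control replicate 3, the shallowest library, was the highest control in 43 of 79 members (54.4%), against 28.7% of those genes. Control replicate 2, the deepest, was the lowest in 42 (53.2%, against 26.9%). Among the most variable was Gm26802, 1926 bases from Fosb, with 25, 46 and 80 in Sirt6mKO and 36, 23 and 90 in control. Gm34455, 2390 bases from Dusp1, had 44, 54 and 95 against 59, 29 and 106. A530013C23Rik, 759 bases from Cebpb, had 22, 33 and 35 against 31, 11 and 52. In all 3, control replicate 3 was the highest and control replicate 2 the lowest of the 6 libraries. Fosb, an early response gene, did not follow this order, with 628, 1218 and 669 in the control libraries. Dusp1 had 366, 310 and 375 and Cebpb 152, 114 and 145 there, both lowest in control replicate 2 but over a narrower range than the lincRNA beside them. The part of depth in this spread was not tested.

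**Figure D5:**
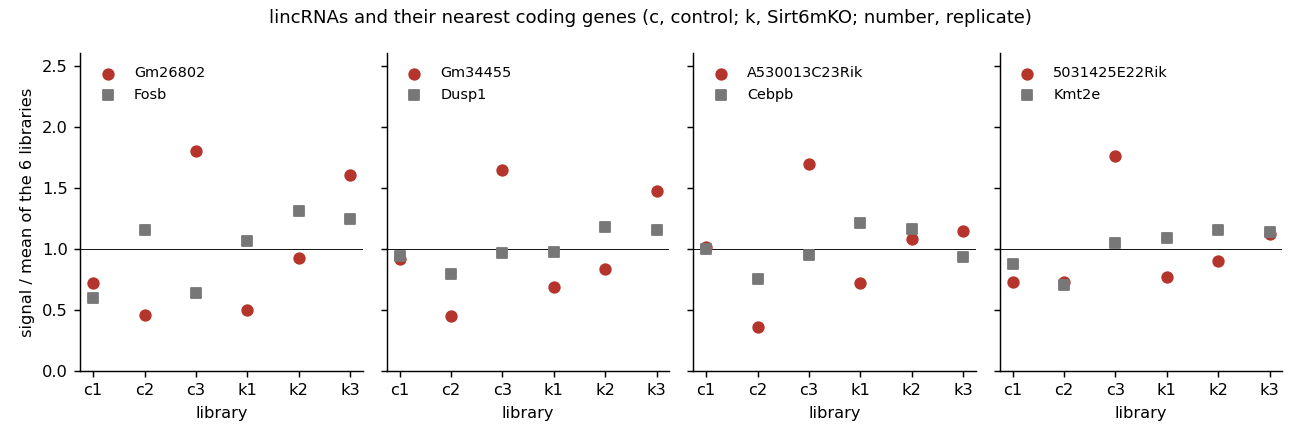
Signal of 4 lincRNAs (red circles) and of their nearest coding genes (grey squares) in each library, divided by the mean of the 6 libraries (vertical axis), with control (c) and Sirt6mKO (k) replicates on the horizontal axis. The lincRNAs beside Fosb, Dusp1, Cebpb and Kmt2e are highest in control replicate 3, where Fosb, Dusp1 and Cebpb are below their own mean.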

How the data were processed

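RNA of sorted MuSCs was depleted of ribosomal RNA and sequenced with 1 library per sample, 3 per group. The submitters' processing notes name mm10, STAR 2.7.10a and featureCounts 2.0.2. The methods name the same aligner and counter in other versions, and state that reads with several places in the genome or in more than 1 gene were not counted. The deposited values name no unit. They are called signal here, since the authors had scaled the reads per gene by 1 factor for each library and rounded the outcome. The factors (0.558 to 1.372) were fitted for each library to how often each whole number occurs, which division and rounding make uneven. The fit was poorest for control replicate 1, and the read numbers and floors derived from the factors are estimates. Mitochondrial genes were not analysed here.

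The members, gene lists, thresholds and alternatives were chosen with earlier results of these data known. log2(signal + 1) of the 14227 genes with a mean of at least 5 was fitted with limma-trend (limma 3.58.1, R 4.3.3, two-sided), with Benjamini-Hochberg adjustment over all of them. Called genes had an adjusted p up to 0.05 and an absolute log2 fold change from 1 upwards. A low group has a floor of 3 reads, which covers counting error only. The procedure was tested on simulated data. Python 3.11.15 (pandas 2.3.3, numpy 2.4.6, matplotlib 3.10.9) was used for tables and figures.

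Exon lengths, neighbours and transcripts came from the GENCODE annotation of GRCm38, in which 99.7% of the identifiers were found. Named genes were Sirt6, the called members, the 10 highest and members with established roles. The nearest coding genes of several members named for a change and abundant genes of several lists were named too. Other genes, such as the variable lincRNAs and the chromosome 13 stretch, were chosen after their values were seen. Alternatives were other scalings, filters, pseudocounts, robust empirical Bayes, voom on recovered reads, a replicate block, the adjusted p alone and leaving out each library.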

Additional observations from a re-analysis of the deposited data

How the results depend on the processing

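The numbers of lincRNAs called higher (4) and lower (2) were the same under median ratio, upper quartile and total signal scaling, without a filter on low values, with a mean of at least 20, with pseudocounts of 0.1 and 5, with robust empirical Bayes and with voom on recovered reads. With the adjusted p alone, 7 were higher. Leaving out 1 library gave 2 to 5 higher, 2 to 3 lower and 4 to 11 past the adjusted p alone. That last count was 4 without Sirt6mKO replicate 1 or 2 and 6 without Sirt6mKO replicate 3. The fitted log2 fold change of Gm31517 depended on the pseudocount, from 3.4 to 6.55. Fold changes next to 0 changed sign. For Epb41l4aos, at 0.001, it was -0.02 under upper quartile and total signal scaling, -0.002 with a pseudocount of 5, -0.01 with voom, and -0.22 to 0.13 without 1 library. Without 1 library, Malat1 ranged from -0.14 to 0.08, 2900097C17Rik from -0.06 to 0.17, Oip5os1 from -0.005 to 0.07, Gm26834 from -0.27 to 0.002 and Hotair from -0.04 to 0.38. The cause was not tested. With the replicate number as a block, 5 were higher, 2 lower and 12 past the adjusted p alone, and Morrbid had an adjusted p of 0.045. The labels do not say what a number stands for. Deviations of same-numbered libraries correlated at 0.02, 0.07 and 0.19, and not every library correlated best with its own number. Signals under about 5 are a few reads and limit the fold of Gm31517. Using the longest transcript in place of merged exons concerns levels per kilobase only.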

Other observations

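Beneath the minimum of 20, 171 lincRNAs with a mean signal of 5 to 20 were tested, of which 6 were called higher and 2 lower (4.68%, beside 2.59% of all genes). A called gene could reach the mean of 5 through the group in which it was high alone, so that nothing is read from this share. These 8 genes were named after their values were seen. BC055402 had signals of 21, 22 and 25 in Sirt6mKO and 0, 1 and 5 in control, and 7630403G23Rik had 15, 15 and 16 against 1, 1 and 0. Snhg18, a snoRNA host, had 15, 19 and 19 against 2, 7 and 4, whereas the Snhg members of the main group had log2 fold changes from -0.30 to -0.23. Gm35082, Gm3734 and Gm28746 were higher too, with log2 fold changes of 3.31, 2.74 and 2.36. Gm47015 was lower, with 1, 1 and 2 in Sirt6mKO and 10, 18 and 13 in control, and 5430431A17Rik had 3, 8 and 5 against 21, 17 and 20. The control values of several of these are at or near the floor of 3 reads, so that the fitted fold changes depend on the pseudocount.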
